A study of Mus musculus with 3 samples.

Results

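The 10 genes described here belong to the activin system and were chosen by name from the 3 deposited expression tables. They encode the inhibin and activin subunits (Inha, Inhba, Inhbb), the follistatins (Fst, Fstl1, Fstl3) and the activin receptors (Acvr1, Acvr1b, Acvr2a, Acvr2b). All 10 were found, each on 1 gene model, among the 22077 gene names analysed. RNA sequencing had been done on mammary cells of FVB mice in 3 pooled libraries, with 1 library per group, to describe lung-colonizing cells and the genes that set them apart. The LCC library held mammary cells recovered from recipient lungs 1 day after injection into a vein, sorted by their fluorescence, from green fluorescent protein or from the stain DDAO. It pooled 15 experiments, 42 lungs and 455880 cells. As the design was described, each experiment put cells of 8 FVB.GFP females into 4 FVB recipients in 2 doses of 2500000 cells. The E-Int29-Hi library came from a sort of dissociated mammary cells with intermediate surface EpCAM and high surface CD29, and combined 3 samples. The MG library was labelled as undissociated mammary gland, from 3 combined samples. No other allele or agent was given for these groups, and no age.

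Activins are dimers of beta subunits, encoded here by Inhba and Inhbb, and signal through a type II receptor that activates a type I receptor and then the transcription factors SMAD2 and SMAD3. A beta subunit joined to the alpha subunit, encoded by Inha, forms an inhibin, which competes with activin for type II receptors. Follistatin and follistatin-like 3 bind activin outside the cell and keep it from its receptors. Activins take part in the growth and branching of the mammary epithelium and in wound repair.

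Values are FPKM (mapped fragments divided by the length of the gene model and by the library total), a unit per length, so levels of different genes can be set side by side. Differences are between values of log2(FPKM + 1), a scale that shrinks the changes of low genes, and a gene was counted as higher or lower where this difference was 2 or more, a 4-fold change on that scale. With 1 library per group there was no replicate error and no test, so whether neighbouring levels differ beyond their spread could not be judged. Read totals were not given. At the low end of the tables, 6819 gene names were listed at 0 in LCC, against 4952 in E-Int29-Hi and 3163 in MG. The markers checked against the labels set E-Int29-Hi apart as basal, with 9 basal epithelial markers summing to 7666 FPKM, against 680 in LCC and 553 in MG. Markers of lung epithelium (7 genes) summed to 630 FPKM in LCC, against 10.1 in E-Int29-Hi and 3.14 in MG. Adipocyte markers (5 genes) summed to 27.3 FPKM in MG, the library labelled as intact gland, 2.08 in E-Int29-Hi and 0.0349 in LCC. Car3 gave 18.9 FPKM of the MG sum, while Adipoq, Plin1 and Lep, which fat cells are known to express strongly, stood at 1.12, 0.575 and 0.614 FPKM there, low for a gland with its fat pad, and this touches every comparison with MG.

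The sequences shown are those of Inhba, highest in LCC, and Fstl3, an antagonist highest in E-Int29-Hi. Each is the 250 bases before the gene start on build GRCm38.p6, from RefSeq, and 9 of the 10 genes had an entry in that table (Fst did not). The expression tables are from another build, so the positions apply to these sequences only. Capitals mark TATAAA on either strand and, in Fstl3, CAGAC on either strand, the short motif that SMAD3 and SMAD4 bind. No 2 marked motifs overlap.
Inhba promoter, chr13:16011601-16011850, plus strand: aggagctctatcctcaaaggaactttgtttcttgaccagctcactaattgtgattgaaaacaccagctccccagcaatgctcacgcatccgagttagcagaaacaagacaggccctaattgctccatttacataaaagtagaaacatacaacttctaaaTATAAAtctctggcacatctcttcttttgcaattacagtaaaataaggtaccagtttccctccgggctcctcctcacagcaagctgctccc
Fstl3 promoter, chr10:79777024-79777273, plus strand: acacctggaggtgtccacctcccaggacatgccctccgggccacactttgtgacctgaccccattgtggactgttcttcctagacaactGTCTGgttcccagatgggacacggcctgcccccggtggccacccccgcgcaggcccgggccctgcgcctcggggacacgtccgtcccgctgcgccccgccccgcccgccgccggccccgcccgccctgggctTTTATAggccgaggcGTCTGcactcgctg
The Inhba window held TATAAA once, 91 bases before the gene start on the gene's strand, and no CAGAC. It had 43.2% G and C and 3 CpG sites, the lowest of the 9 windows in each, whereas the other 8 ran from 53.6% (Inha) to 85.6% (Acvr1) and the median over 32851 windows was 52.4%. The Fstl3 window had 71.2% G and C, with CAGAC on the opposite strand at 161 and 14 bases before the start, and TATAAA on the opposite strand at 29 bases. TATAAA was in 12.4% of all windows of this length and CAGAC in 42.2%. GTCTAGAC (0.167% of windows), TGACGTCA (1.55%) and TGANTCA (6.75%), searched on both strands, were in none of the 9 windows, while GGGCGG (32.7%) was in 7 of them, all but Inha and Inhba. These matches describe letters in the windows only.

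Among the subunits, Inhba, which encodes the beta A subunit of activin A, stood at 248 FPKM in LCC, against 4.02 in E-Int29-Hi and 13.3 in MG. LCC was the single high library, and Inhba there ranked 208th of all gene names by level, against 7721st in E-Int29-Hi and 4386th in MG. The log2 difference was 5.63 for LCC over E-Int29-Hi, which 11 of 12147 genes exceeded, and 4.12 for LCC over MG, which 9 of 12443 genes exceeded. The difference between E-Int29-Hi and MG, at -1.51, was short of 4-fold. In pooled RNA, fewer cells of a type and less RNA per cell cannot be told apart. Several marker lists were also higher in LCC than in E-Int29-Hi. The 8 macrophage and monocyte markers summed to 374 FPKM in LCC, against 107 in E-Int29-Hi and 200.5 in MG, with none at 0 in any library, 2 of them at least 4-fold higher in LCC than in E-Int29-Hi and 1 (Lyz2) higher than in MG. Lyz2 alone gave 232 FPKM in LCC, and without it the sums were 142, 46.7 and 172 FPKM in the same order, so that LCC stood below MG. Cd14 and Mrc1 were lower in LCC (51.1 and 1.78 FPKM) than in MG (130 and 6.53 FPKM), short of the mark. The 6 dendritic cell markers summed to 95.9, 6.71 and 13.5 FPKM in the same order, with 3 of them, Itgax, Ccr7 and Ccl22, at least 4-fold higher in LCC than in E-Int29-Hi, 2 higher than in MG, and Cd209a listed at 0 in LCC. Of the 7 neutrophil markers, S100a8 and S100a9 were at least 4-fold higher in LCC than in E-Int29-Hi and S100a9 also higher than in MG (15.9 against 1.63 FPKM), while the other 5, among them Ly6g, were listed at 0 in LCC. The lung epithelial list (sums above, and 57.5, 9.33 and 2.79 FPKM without Scgb1a1) had 4 of 7 members at least 4-fold higher in LCC than in E-Int29-Hi and 5 of 7 higher than in MG, with Sftpa1 listed at 0 in E-Int29-Hi. Foxj1 alone was lower in LCC than in E-Int29-Hi (3.69 against 7.75 FPKM, short of the mark). It gave most of the E-Int29-Hi sum without Scgb1a1. The 10 fibroblast markers summed to 1452 FPKM in LCC, against 151 in E-Int29-Hi and 3136 in MG, none at 0. Of these, 7 stood at least 4-fold higher in LCC than in E-Int29-Hi and 0 higher than in MG. The part of these cells in the Inhba level was not tested.

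Inhbb, which encodes the beta B subunit of activin B, had another order. It stood at 18.4 FPKM in LCC, against 4.26 in E-Int29-Hi and 52.9 in MG, highest in the gland. Its log2 difference from MG was -3.36 in E-Int29-Hi, past the 4-fold mark, and -1.47 in LCC, short of it. LCC over E-Int29-Hi gave 1.88, just short of the mark, and this passes it with a pseudocount of 0.1 (2.09). Luminal epithelial markers (10 genes, none at 0) summed to 4447 FPKM in LCC, against 368 in E-Int29-Hi and 2443 in MG. That sum was carried by the keratins Krt8 and Krt18, at 1258 and 2368 FPKM in LCC, and the members did not share its order. Of the 10, 5 were lowest in E-Int29-Hi (Krt8, Krt18, Krt19, Cldn4 and Kit) and 5 in LCC (Elf5, Prlr, Pgr, Esr1 and Gata3). In LCC 4 of 10 stood at least 4-fold higher than in E-Int29-Hi and 0 lower, whereas against MG 0 stood higher and 4 (Elf5, Prlr, Pgr and Esr1) lower, with a median of -1.06. In E-Int29-Hi 7 of 10 stood at least 4-fold lower than in MG. The fibroblast markers were lowest in E-Int29-Hi in 10 of 10. Summed fibroblast, endothelial, pericyte and lymphocyte markers had the order of Inhbb, highest in MG and lowest in E-Int29-Hi. Outside the fibroblast list, members did not all share that order. The part of any of these cell types in the Inhbb level was not tested. The more abundant beta subunit was not the same in LCC and MG. Inhba made up 93.1% of the summed beta subunit FPKM in LCC, against 48.5% in E-Int29-Hi and 20.1% in MG.

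Inha, the alpha subunit, was low in every library, at 0.0163 FPKM in LCC, against 2.24 in E-Int29-Hi and 1.09 in MG. Its LCC value lay near the bottom of that table, with 309 of the 15258 gene names above 0 standing lower, so no fold is given. On the log2(FPKM + 1) scale it differed in LCC by -1.67 from E-Int29-Hi and by -1.04 from MG, neither past the mark. With a pseudocount of 0.1 these became -4.33 and -3.35, and with libraries rescaled to the same sum -2.91 and -2.2. Its call thus rests on such choices. Set against the summed beta subunits of the same library, Inha came to 27.0% in E-Int29-Hi and 1.65% in MG. No ratio is given for LCC.

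**Figure D1:**
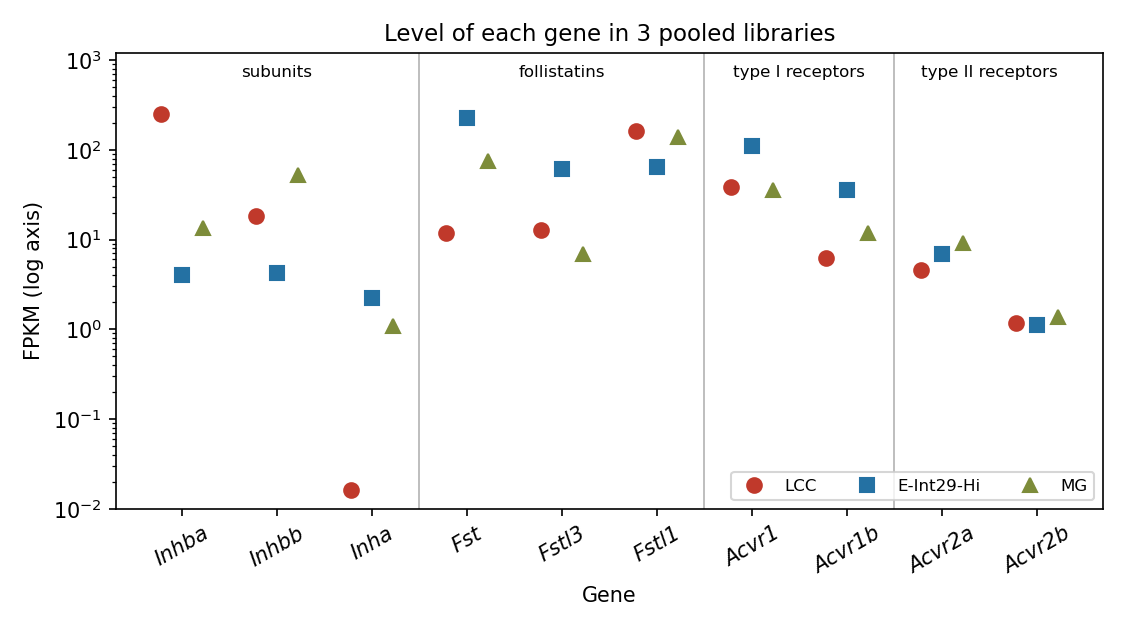
FPKM on a log axis for the 10 genes, grouped by role, with 1 point per pooled library and no error bars because each group had 1 library. Inhba is the gene with LCC farthest above both other libraries (248 against 4.02 and 13.3 FPKM), while Fst has LCC lowest (12.0 against 228 and 75.0 FPKM).

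Of the antagonists, Fst stood opposite to Inhba in both comparisons of LCC and Fstl3 in 1 of them. Fst, which encodes follistatin, stood at 12.0 FPKM in LCC, against 228 in E-Int29-Hi and 75.0 in MG, so LCC was the low library and E-Int29-Hi the high one. Its log2 difference was -4.14 for LCC against E-Int29-Hi, with 60 of 12147 genes lower still, and -2.55 for LCC against MG. E-Int29-Hi stood above MG by 1.59, short of the mark. Fst ranked 214th of all gene names by level in E-Int29-Hi and 4790th in LCC.

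Fstl3, which encodes follistatin-like 3, stood at 12.8 FPKM in LCC, against 61.0 in E-Int29-Hi and 6.96 in MG. E-Int29-Hi was again highest, but here MG and not LCC was lowest. The log2 difference was -2.17 for LCC against E-Int29-Hi and 2.96 for E-Int29-Hi against MG, both past the mark, and 0.79 for LCC against MG. The first of these rests on the scale, since a pseudocount of 5 gives -1.89. Fst was 3.75 times the level of Fstl3 in E-Int29-Hi, 10.8 times in MG and 0.935 times in LCC. The basal markers, whose sums stand above, were highest in E-Int29-Hi too, with 9 of 9 at least 4-fold lower in LCC and none listed at 0. Their part in the levels of Fst and Fstl3 was not tested.

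Fstl1 encodes a secreted glycoprotein with a follistatin domain that is not a classical activin trap, and it was kept apart from the other antagonists. It was abundant everywhere, at 163 FPKM in LCC, against 64.2 in E-Int29-Hi and 139 in MG. None of its differences reached 4-fold (1.33, 0.23 and -1.10 for LCC against E-Int29-Hi, LCC against MG and E-Int29-Hi against MG). Its small excess in LCC over MG turned to -0.15 when libraries were rescaled to the same sum. The order, lowest in E-Int29-Hi, was not that of Fst or Fstl3. The fibroblast markers were lowest in E-Int29-Hi too, with the sums given beside Inhba, and their part in the Fstl1 level was not tested.

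**Figure D2:**
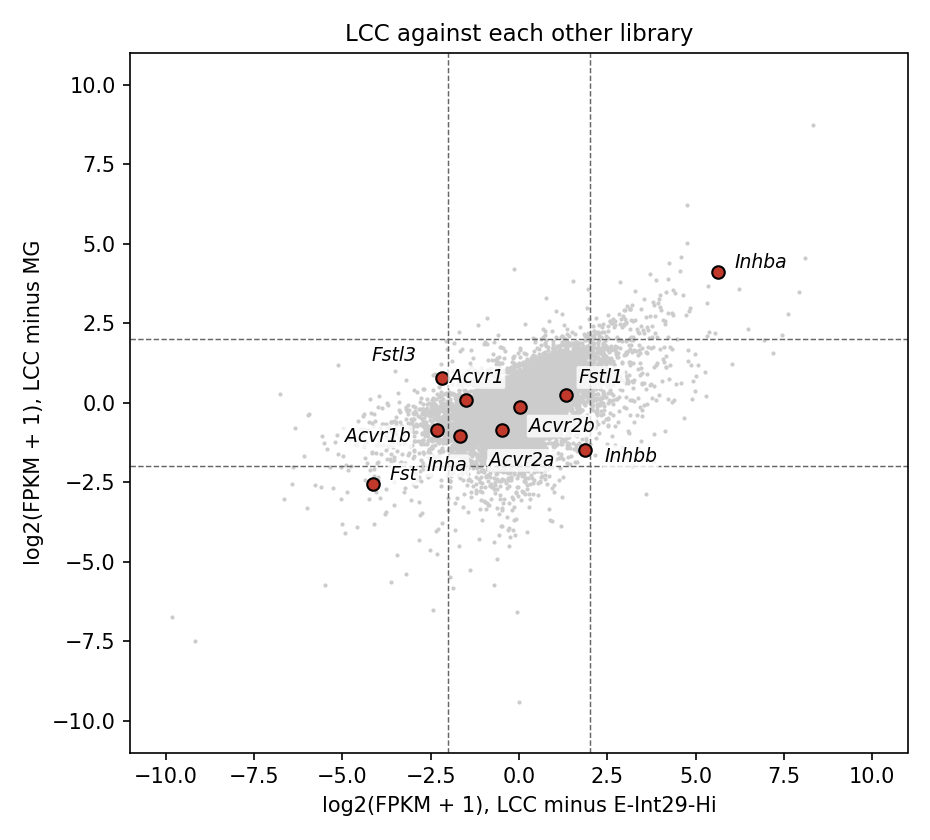
Each grey point is 1 of 12772 gene names at 1 FPKM or more in any library, placed by its difference in log2(FPKM + 1) between LCC and E-Int29-Hi (x axis) and between LCC and MG (y axis). The 10 genes are in red and dashed lines mark 4-fold: Inhba lies past the mark on both axes at the top right (5.63 and 4.12) and Fst at the bottom left (-4.14 and -2.55).

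Summed by role within a library, the beta subunits and the antagonists Fst and Fstl3 changed places. The beta subunits summed to 266.5 FPKM in LCC, against 8.28 in E-Int29-Hi and 66.2 in MG. Fst and Fstl3 summed to 24.8, 289 and 81.9 FPKM in the same order. Beta subunit transcripts were thus 10.8 times those of the antagonists in LCC and 0.808 times in MG, whereas in E-Int29-Hi the antagonists were 34.9 times the beta subunits. Scaling a whole library cannot move these ratios, since both sums are from the same library. They compare transcripts and not proteins.

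**Figure D3:**
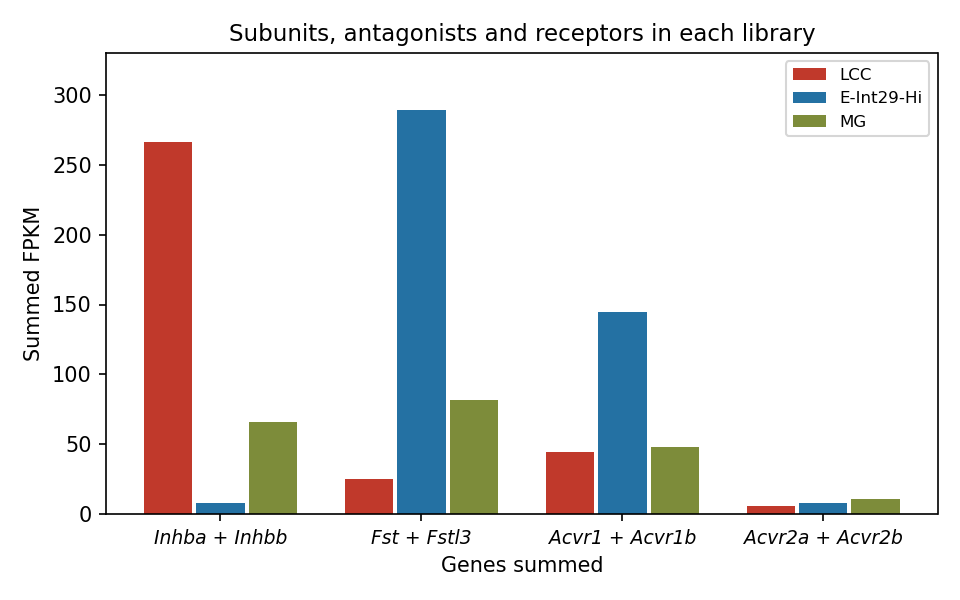
Bars show the summed FPKM of the 2 genes named under each set, from 0, in the LCC, E-Int29-Hi and MG libraries, without error bars because each group had 1 library. LCC has the tallest bar for Inhba + Inhbb (266.5 FPKM) and E-Int29-Hi the tallest for Fst + Fstl3 (289 FPKM).

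Type I receptors stood higher in E-Int29-Hi than elsewhere. Acvr1b, which encodes the main type I receptor of activin, stood at 6.22 FPKM in LCC, against 35.4 in E-Int29-Hi and 12.0 in MG. LCC was the lowest, and the log2 difference from E-Int29-Hi was -2.33, past the mark, though a pseudocount of 5 gives -1.85. LCC against MG gave -0.85 and E-Int29-Hi against MG 1.49. The part of the basal cells, whose markers were also highest in E-Int29-Hi, was not tested here either. Acvr1, which encodes a type I receptor best known for bone morphogenetic proteins, stood at 38.3 FPKM in LCC, against 109 in E-Int29-Hi and 35.7 in MG. None of its differences reached the mark, with -1.49 for LCC against E-Int29-Hi, 0.10 for LCC against MG and 1.59 for E-Int29-Hi against MG. The difference between LCC and MG turned to -0.28 when libraries were rescaled to the same sum. Acvr1 was the more abundant of the pair in each library, at 6.15 times Acvr1b in LCC, against 3.09 in E-Int29-Hi and 2.99 in MG.

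Type II receptors were low and varied least. Acvr2a stood at 4.60 FPKM in LCC, against 6.88 in E-Int29-Hi and 9.27 in MG. Acvr2b stood at 1.17, 1.12 and 1.36 FPKM. The differences of Acvr2a ran from -0.87 to -0.38 and those of Acvr2b from -0.16 to 0.04, and 2 of the 3 signs of Acvr2b flip with median ratio scaling. Acvr2a was the more abundant, at 3.93 times Acvr2b in LCC, against 6.17 in E-Int29-Hi and 6.82 in MG. Summed type I transcripts were 7.70 times the summed type II transcripts in LCC, against 18.1 in E-Int29-Hi and 4.49 in MG.

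Counted over the 10 genes, all of which were at 1 FPKM or more in at least 1 library of each pair, 1 (Inhba) was higher and 3 (Fst, Fstl3, Acvr1b) were lower in LCC than in E-Int29-Hi. Of all 12147 genes at this level, 4.64% were higher and 4.35% lower. The median difference of the 10 was -0.99, against 0.26 over all genes. Against MG, LCC had 1 (Inhba) higher and 1 (Fst) lower, where 1.33% and 2.63% of 12443 genes were, with a median of -0.48 against 0.01. E-Int29-Hi against MG had 1 (Fstl3) higher and 1 (Inhbb) lower, where 2.60% and 3.97% of 12430 genes were, with a median of 0.24 against -0.23. The 3 comparisons share libraries and the genes were chosen with results known, so these counts are a description. E-Int29-Hi was the highest library for 5 of the 10 genes (Inha, Fst, Fstl3, Acvr1 and Acvr1b), MG for 3 and LCC for 2. This tally depends on scaling. LCC was no longer highest for Fstl1 with the same sum, nor MG for Acvr2b with median ratio scaling.

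**Figure D4:**
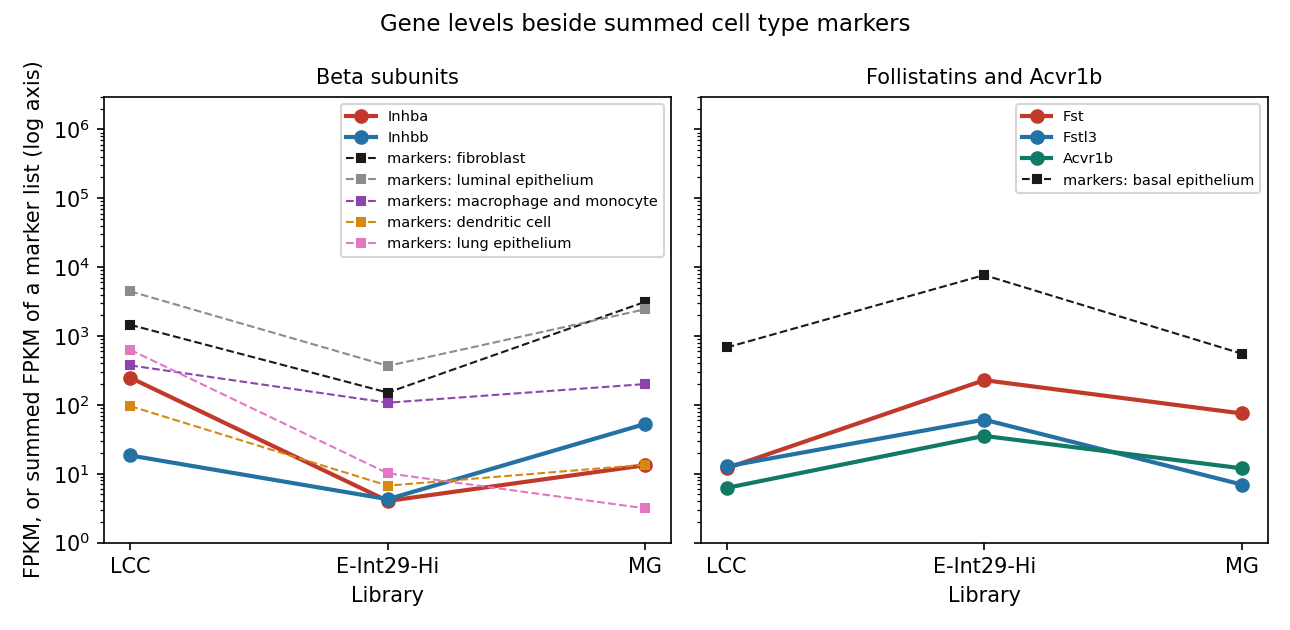
FPKM of the beta subunits (left) and of Fst, Fstl3 and Acvr1b (right), solid lines, beside the summed FPKM of cell type marker lists, dashed lines, on a log axis in LCC, E-Int29-Hi and MG. Lines only join values of the same gene or list: Inhba has its highest value in LCC, as do the sums of the luminal (carried by Krt8 and Krt18), macrophage (carried by Lyz2), dendritic cell and lung epithelial lists, and Fst, Fstl3 and Acvr1b have theirs in E-Int29-Hi, as does the basal sum (7666 FPKM).

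For the 5 genes past the mark in any pair, the genes of nearest pattern were taken as those with the smallest distance in the 2 log2 differences of LCC, among 6362 candidates at 10 FPKM or more. This likeness rests on 3 libraries. Nearest to Inhba were Tnc, tenascin C (380 FPKM in LCC, against 8.39 in E-Int29-Hi and 28.8 in MG, at a distance of 0.534), Mmp12, a macrophage elastase (distance 0.799), Serpinb2, an inhibitor of plasminogen activators (1.02), Clec4e, a lectin of myeloid cells (1.03), and Il12b, a cytokine subunit (1.08). Nearest to Fst were Eln, elastin (10.1, 174 and 59.0 FPKM, distance 0.201), Plekha4 (0.249), Oxtr, the oxytocin receptor of myoepithelial cells (0.256), Col9a1 (0.265) and Mdk (0.284). Fstl3 was nearest to Rnf122 (0.128), Bnc1 (0.153), Krt5, a basal keratin (92.3, 426 and 60.7 FPKM, distance 0.200), Sfn (0.251) and Cotl1 (0.281). Acvr1b was nearest to Irs2 (0.009), Jmjd1c (0.058), Bcor (0.075), Cntfr (0.083) and Sh2d5 (0.096), and Inhbb to Capn5 (0.034), Erbb3 (0.039), Tnxb (0.105), Igfbp6 (0.149) and Gbp4 (0.201). The distances of Inhba are the longest of the 5. Several of these neighbours stood under 1 FPKM in a library, where the added 1 FPKM shrinks the difference. Among them were Clec4e (0.0652 FPKM in E-Int29-Hi), Oxtr (0.0842 in LCC) and Col9a1 (0.0347 in LCC), so their closeness rests on that scale.

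The related ligands listed here were low, in a list that leaves out the bone morphogenetic proteins. Of 7 related ligands, 6 were found, and only Gdf11, which also signals through activin type II receptors, reached 1 FPKM (0.940 in LCC, against 3.62 in E-Int29-Hi and 3.00 in MG). The beta subunits of the liver, Inhbc and Inhbe, were listed at 0 in LCC and E-Int29-Hi and stood under 0.1 FPKM in MG, as did Nodal, Mstn and Gdf3 in every library. Among 8 other antagonists and decoys, only 1 reached 1 FPKM in LCC or E-Int29-Hi, and 2 did in each pair with MG. None of these passed the mark as reported, and the others could not be compared. Bambi, a pseudoreceptor that blocks type I receptors, stood at 1.11 FPKM in LCC, against 6.42 in E-Int29-Hi and 2.46 in MG. Its log2 difference for LCC against E-Int29-Hi was -1.82, which passes the mark with a pseudocount of 0.1 (-2.43), median ratio scaling (-2.04) or the same sum per library (-2.39). Wfikkn1 reached 1.39 FPKM in MG, where E-Int29-Hi was past the mark below it with a pseudocount of 0.1 (-2.15), while Wfikkn2 and Lefty1 stayed under 1 FPKM.

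Of 12 related receptors and co-receptors, 8 were at 1 FPKM or more in LCC or E-Int29-Hi, with 0 higher and 1 lower in LCC (median -0.36, against 0.26 over all genes). The lower one was Tgfbr3, betaglycan, a co-receptor of inhibin, at 6.29 FPKM in LCC, against 63.5 in E-Int29-Hi and 21.9 in MG (log2 difference -3.15 from E-Int29-Hi). Its order over the libraries was that of Fst. LCC had 0 of 8 higher and 1 lower than MG (median -1.03), namely Eng, endoglin of endothelial cells, at 28.2 against 121 FPKM. E-Int29-Hi had 0 of 7 higher and 1 lower than MG (median -0.10), namely Acvrl1, another endothelial receptor, at 7.78 against 34.5 FPKM. The 7 endothelial markers, none at 0, summed to 108.5 FPKM in LCC, against 105 in E-Int29-Hi and 525 in MG. Their part in Eng and Acvrl1 was not tested. Eng lost its call with a pseudocount of 5 and Acvrl1 with that or median ratio scaling. Bmpr2, a type II receptor of bone morphogenetic proteins, stood at 17.1 FPKM in LCC, against 62.9 in E-Int29-Hi and 38.8 in MG. It passed the mark below E-Int29-Hi with median ratio scaling (-2.10) or the same sum (-2.06). Tgfbr3 passed it below MG with the same sum (-2.12). Tgfbr2, that of TGF-beta, stood at 19.4, 20.3 and 36.3 FPKM. Of all genes, 4.64% were higher and 4.35% lower in LCC than in E-Int29-Hi, and 1.33% and 2.63% against MG. For E-Int29-Hi against MG the shares were 2.60% and 3.97%, and all these stand beside the counts of the lists below too.

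Proprotein convertases cut the activin precursor. Furin, the best known of them, differed little, at 71.1 FPKM in LCC, against 82.2 in E-Int29-Hi and 58.0 in MG. Pcsk7 also differed little, at 9.57, 7.10 and 9.31 FPKM. Pcsk5 stood at 1.59 FPKM in LCC, against 27.6 in E-Int29-Hi and 6.43 in MG, the 1 of 4 that was lower in LCC than in E-Int29-Hi (log2 difference -3.46). Pcsk6 stood at 1.12, 6.69 and 8.72 FPKM, the 1 of 4 lower in LCC than in MG (-2.20, not past the mark with a pseudocount of 5). Of all genes, 4.35% were lower in LCC than in E-Int29-Hi and 2.63% lower than in MG. No convertase passed the mark between E-Int29-Hi and MG as reported, where Pcsk5 stood at 1.94 and passes it with a pseudocount of 0.1 (2.08) or median ratio scaling (2.26). Pcsk6 is a second one lower in LCC than in E-Int29-Hi (-1.86) with a pseudocount of 0.1 (-2.48), median ratio scaling (-2.09) or the same sum (-2.44), and Pcsk5 a second one lower in LCC than in MG with the same sum (-2.15).

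The SMAD proteins carry the signal of the receptors to the nucleus. Of 14 SMAD genes and regulators listed, 13 were found (Skil was left out for its status in MG) and 12 were at 1 FPKM or more. Smad6, an inhibitory SMAD, was the 1 lower in LCC than in E-Int29-Hi (1.63 against 14.6 FPKM, log2 difference -2.57, lost with a pseudocount of 5), and 0 were higher. None passed the mark in the other 2 comparisons. Ski also passed it below E-Int29-Hi with median ratio scaling (-2.04), and Smad6 below MG with the same sum (-2.17). The medians were -0.11, 0.32 and 0.49 for LCC against E-Int29-Hi, LCC against MG and E-Int29-Hi against MG. Over all genes they were 0.26, 0.01 and -0.23, with 4.64% higher and 4.35% lower in the first comparison. Smad7, which blocks type I receptors and is a target of SMAD3, stood at 70.7 FPKM in LCC, against 135 in E-Int29-Hi and 52.3 in MG. The corepressor genes Tgif1 and Ski stood at 219, 235 and 133 FPKM and at 27.5, 95.2 and 53.9 FPKM, and Usp9x, which encodes a deubiquitinase of SMAD4, at 53.4, 69.6 and 56.5 FPKM.

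Genes known to respond to SMAD2 and SMAD3 did not all stand in one direction. Of 19 listed and 18 found, 11 could be compared between LCC and E-Int29-Hi, with 0 higher and 1 lower (median -0.23, against 0.26 over all genes). The lower one was Ctgf, a matricellular protein that other pathways also induce, at 49.0 FPKM in LCC, against 1234 in E-Int29-Hi and 122 in MG. Pmepa1 was a second lower one with median ratio scaling (-2.18) or the same sum (-2.10), and Cdkn2b was higher with a pseudocount of 0.1 (2.95) or the same sum (2.26). Against MG, LCC had 1 of 11 higher and 0 lower (median 0.71, against 0.01). The higher one was Ltbp2, a matrix protein, at 93.4 FPKM in LCC, against 174 in E-Int29-Hi and 14.0 in MG. Cdkn2b, a cell cycle inhibitor, joined it with a pseudocount of 0.1 (2.07). E-Int29-Hi against MG had 3 of 10 higher and 1 lower (median 1.03, against -0.23). The higher ones were Ctgf, Ltbp2 and Pmepa1, an inhibitor of SMAD signalling, at 211 FPKM in LCC, against 786 in E-Int29-Hi and 105 in MG. The lower one, Tgfbi, stood at 20.5, 5.91 and 26.7 FPKM, and its call was lost with median ratio scaling or a pseudocount of 5, while Gsc was a second lower one with the same sum (-2.01). Junb stood at 329, 614 and 453 FPKM. Bhlhe40, a transcription factor, stood at 264, 194 and 138 FPKM. Ctgf and Pmepa1, like the basal markers, were highest in E-Int29-Hi, as were most of the 11 genes compared, among them Ltbp2, Junb, Smad7 and Tgif1. Bhlhe40, Cdkn2b, Tgfbi and Cdkn1a were not. Cdkn1a stood at 144 FPKM in LCC, against 138 in E-Int29-Hi and 113 in MG. The part of basal cells in these genes was not tested. The pituitary targets Fshb and Gnrhr were listed at 0 in LCC and E-Int29-Hi.

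**Figure D5:**
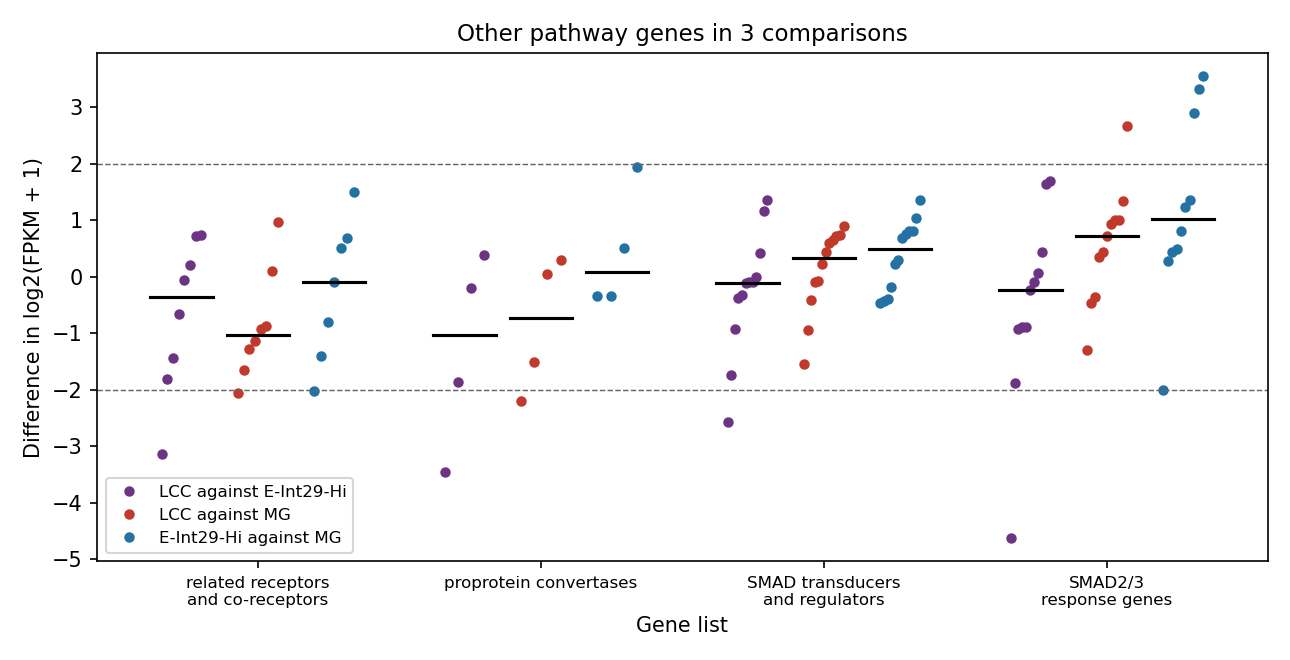
Points are genes of 4 lists at 1 FPKM or more in either library of a pair, placed by their difference in log2(FPKM + 1) in each of 3 comparisons, with a black bar at each median and dashed lines at 4-fold. The SMAD genes lie mostly within the lines, and the response genes have medians of -0.23, 0.71 and 1.03 from left to right.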

How the data were processed

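RNA of 3 pooled samples was poly(A)-selected and sequenced on an Illumina HiSeq instrument, per the labels' protocols. For each library the authors deposited a table of 22378 gene models, each with its FPKM and a status flag. The submitters' processing notes list TopHat 1.4.1, Cufflinks 1.3.0 and mm9 without saying what each did. Which annotation release was used was not stated.

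Of these models, 78 had no value and 112 were left out because a library's status was not OK. Where a name stood on several of the 22188 others (105 names), the model with the highest summed FPKM was kept. Depth was not given. Among values under 0.1 FPKM, the commonest ratio of LCC to E-Int29-Hi was 1.12 (15 of 391 genes), that of LCC to MG was 1.17 (18 of 331) and that of E-Int29-Hi to MG was 1.05 (129 of 1184). These rest on few genes and leave relative depth unsettled.

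Differences in log2(FPKM + 1) were taken where either library of a pair reached 1 FPKM, without a test. The genes, lists and markers were chosen with earlier results of these data known. Named were all 10 genes, list members 4-fold apart in any pair, up to 4 per list with the highest FPKM, and the 5 nearest genes in pattern. 1 gene of the list of SMAD2 and SMAD3 response genes is not reported here and was left out of that list's counts and medians. Alternatives were a pseudocount of 0.1 or 5, other filters, median ratio scaling, the same sum per library (TPM), genes of every status and summed models. Other marker lists had sums, in the order LCC, E-Int29-Hi, MG, of 48.0, 19.8 and 79.3 (pericyte), 30.6, 1.86 and 11.9 (neutrophil), 3.59, 2.23 and 7.30 (T and B lymphocyte) and 0.853, 0.184 and 0.705 (mesothelium). The steps were tested on simulated data. Python 3.11.15, numpy 2.4.6, pandas 2.3.3 and matplotlib 3.10.9 were used.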

Additional observations from a re-analysis of the deposited data

How the results depend on the processing

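No paired analysis was possible because each group had 1 library. Of 240 differences of the 10 genes recomputed under 8 alternatives, 226 kept their call and 5 changed sign, all of them under 0.3 in size as reported. Many of these values could not move, so the counts do not measure robustness. Genes of every status and summed models left these genes as they were, each on 1 gene model, and filters alter calls but not differences. Only median ratio scaling and the same sum can change a sign, and all 5 changes came with them. Inhba stayed past the 4-fold mark in LCC against both other libraries under all 8 (4.81 to 5.91 against E-Int29-Hi and 3.79 to 4.21 against MG), and Fst stayed past it below both (-4.43 to -3.78 and -2.99 to -2.24). With a pseudocount of 0.1, which counts low genes more readily, 2 of the 10 were higher in LCC than E-Int29-Hi (Inhba and Inhbb) and 4 lower (Fst, Fstl3, Acvr1b and Inha). Against MG, 2 were lower in LCC (Fst and Inha). Fst and Inha were also lower than MG with the same sum per library, whose values are larger against the pseudocount. Inha was then lower than in E-Int29-Hi too (-2.91). With a pseudocount of 5, 1 was lower in LCC than in E-Int29-Hi (Fst). Over all genes, higher and lower calls for LCC against E-Int29-Hi, LCC against MG and E-Int29-Hi against MG were 564 and 528, 166 and 327, and 323 and 494. They became 1128 and 947, 334 and 815, and 521 and 1089 with a pseudocount of 0.1, and 209 and 235, 71 and 95, and 138 and 159 with one of 5. Median ratio scaling (divisors of 1.05, 0.863 and 1.09 for LCC, E-Int29-Hi and MG) gave 451 and 700, 172 and 289, and 465 and 356, and took the median gene of LCC against E-Int29-Hi from 0.26 to 0.00 and that of E-Int29-Hi against MG from -0.23 to 0.07. The same sum gave 705 and 942, 157 and 919, and 375 and 1011, with medians of 0.07, -0.41 and -0.45. Without read counts, the counting error of low values such as Inha in LCC is unknown.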
